A study of Mus musculus with 6 samples.

Results

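The genes described here are 34 skeletal muscle genes, read on arrays of embryonic mouse epidermis. They were chosen by name, as genes that build or run the contractile apparatus of skeletal muscle, and each was read from its brightest probe among the 21370 genes named on the array. The 34 are 8 genes of the thick filament, 9 of the thin filament, 8 of the scaffold that holds the sarcomere together, 3 of calcium handling, 2 acetylcholine receptor subunits, 2 enzymes of energy supply and 2 transcription factors of the muscle lineage.

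Epidermis of embryos at embryonic day 16 (E16) was compared with epidermis of wild-type littermates on 6 arrays of 2 colours. The knockouts had lost Sox4 (Sox4 cKO), Sox11 (Sox11 cKO) or both genes (dcKO), which encode related transcription factors, and each genotype had 2 arrays labelled as biological replicates. Per the study's methods, floxed alleles were deleted by Cre under the keratin 14 promoter, so deletion was limited to cells that express keratin 14 and their descendants. The Cre line was on an FVB/N background. The floxed line was on a mixed background of other strains and was crossed from mice that also lacked Sox12. The epidermis was peeled from the skin after dispase digestion. Whether the Sox12 allele was still present in the embryos, and whether embryos were pooled, is not given in the sources used here.

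Skeletal muscle fibres are filled with sarcomeres, in which thick filaments of myosin pull on thin filaments of actin when calcium binds troponin. Muscle built before birth uses its own isoforms, among them the embryonic and perinatal myosin heavy chains (Myh3 and Myh8), the light chain Myl4 and cardiac alpha actin (Actc1), which later give way to adult forms. In mouse skin striated muscle lies in the panniculus carnosus, a thin sheet beneath the dermis, and keratinocytes form no sarcomeres.

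The tissue label was met by the epidermal markers, since 10 of 10 (Krt14, Krt5, Krt1, Krt10, Krt15, Trp63, Itga6, Dsp, Perp and Cdh1) were well above background, a mark set by the scanner software, in the wild-type and the knockout channel of every array. Per channel, 38.9% to 43.6% of spots exceeded background clearly. A probe of Sox4 was lower in Sox4 cKO (log2 -1.66 and -2.26) and in dcKO (-1.55 and -1.61) and was not above background in those knockouts. The limma adjusted p was 0.029 and 0.0023. The brighter Sox4 probe gave -0.14 and -0.71 in Sox4 cKO (adjusted p = 0.80) and -0.95 and -0.69 in dcKO (adjusted p = 0.078). Probes of Sox11 lay near background in most channels and could not check the Sox11 labels. Knockout and wild type alike gave signal for the Y-linked genes Ddx3y, Eif2s3y and Uty, but not for Xist, on the first array of each single knockout and on the pair of dcKO arrays, and the reverse on the second array of each single knockout. The replicates of the single knockouts thus differed in sex as well as in dye, and the part of sex in the results was not tested. In bulk tissue, fewer cells of a type and less RNA per cell cannot be told apart.

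Of the 34 muscle genes, 25 were well above background in at least 1 wild-type sample and 9 in none. Those detected in all 6 wild-type samples were Mylpf, Mybpc1, Tpm2, Tnnt1, Tnni2, Tnnc2, Cacna1s, Atp2a1 and Pygm. A further 5 (Tnni1, Tnnc1, Ttn, Actn2 and Ckm) were above background in a single channel of the whole series, the wild-type sample of Sox4 cKO replicate 1. The 8 that were above background in no channel of any array were Myh1, Actn3, Myom1, Des, Chrna1, Chrnd, Myog and Myod1.

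Detection was uneven among the wild-type littermates. The number of muscle genes above background in the wild-type channel was 24 on the array of Sox4 cKO replicate 1, 12 on Sox4 cKO replicate 2, 14 and 10 on the Sox11 cKO arrays, and 17 and 19 on the dcKO arrays. In the knockout channel of the same arrays it was 14, 15, 15, 13, 15 and 13. The knockout samples thus lay within a narrow band, and the widest gap was within the wild-type group, as the bar chart of detected muscle genes shows.

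**Figure D1:**
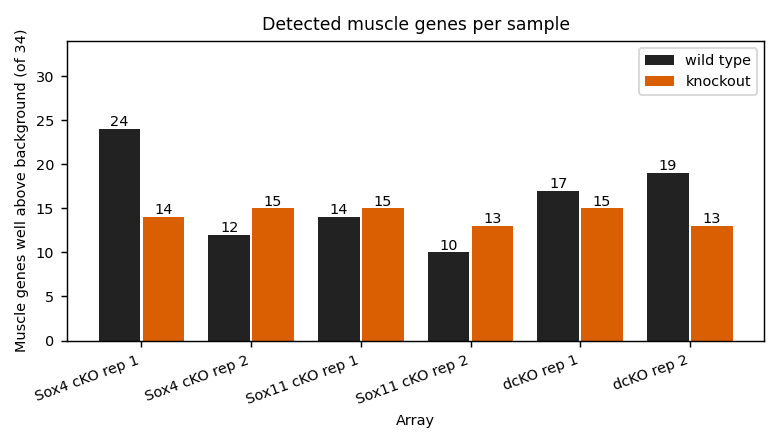
Number of the 34 muscle genes whose brightest probe was well above background in the wild-type (black) and knockout (orange) sample of each array. The wild-type count ran from 10 to 24 and was highest on the array of Sox4 cKO replicate 1, while the knockout count ran from 13 to 15.

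Of the 34 genes, 22 had their highest wild-type level on the array of Sox4 cKO replicate 1, and 4 each on Sox4 cKO replicate 2 and dcKO replicate 2. With each gene centred on its own mean over the 6 wild-type samples, the median muscle gene stood at 0.62 (log2) in the wild-type sample of Sox4 cKO replicate 1 and at 0.13 in that of dcKO replicate 2. The other 4 wild-type samples stood between -0.22 and -0.11. With processed signals scaled to the 75th percentile of each array instead, the values were 1.83 and 0.25, and the other 4 stood between -0.50 and -0.24. These are channel levels, log2 signals made comparable between arrays, and the wild type was labelled with Cy3 on replicate 1 and with Cy5 on replicate 2 of each genotype.

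The heat map of all 34 genes shows log2(knockout/wild type), here called the ratio, on each array. On Sox4 cKO replicate 1 the median muscle gene was at -0.72, 28 of 34 were below 0, and 12 were below -1, against 0.576% of all named genes below -1 on that array. On Sox4 cKO replicate 2 the median was -0.01, 17 of 34 were below 0 and 0 were below -1 (0.145% of all genes). The arrays of Sox11 cKO had medians of 0.11 and 0.02 with 0 genes below -1 (0.201% and 0.0983% of all genes). The arrays of dcKO had medians of 0.02 and -0.33, with 1 gene below -1 on replicate 1 and 6 on replicate 2 (0.744% and 0.552% of all genes). The low values therefore sat on Sox4 cKO replicate 1 and, to a smaller extent, on dcKO replicate 2, and, apart from Cacna1s in dcKO, the other array of each of these genotypes had no value below -1.

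**Figure D2:**
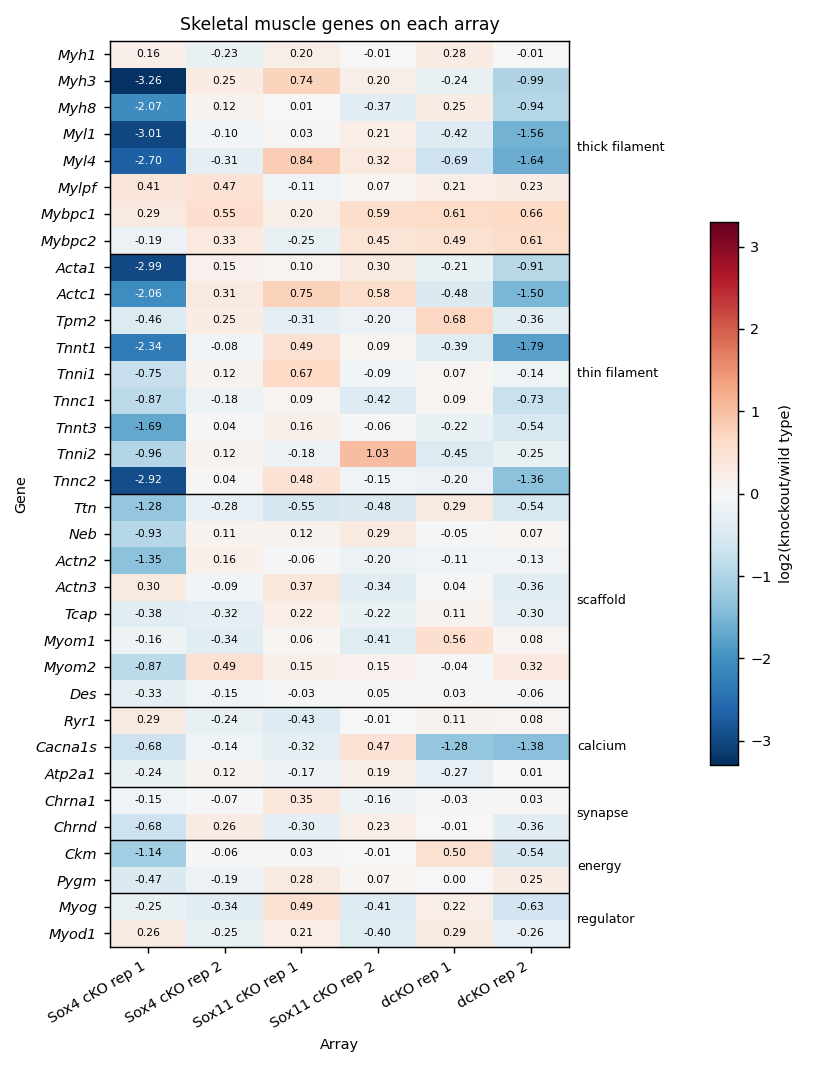
Log2(knockout/wild type) of the 34 muscle genes (rows, grouped by role) on the 6 arrays (columns), with blue for lower and red for higher in the knockout and the value printed in each cell. The deep blue cells lie on Sox4 cKO replicate 1, where Myh3 reached -3.26, and more faintly on dcKO replicate 2.

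The 12 genes below -1 on Sox4 cKO replicate 1 were Myh3, Myh8, Myl1, Myl4, Acta1, Actc1, Tnnt1, Tnnt3, Tnnc2, Ttn, Actn2 and Ckm. The 6 below -1 on dcKO replicate 2 were Myl1, Myl4, Actc1, Tnnt1, Tnnc2 and Cacna1s. Both arrays shared 5 of these genes, which is 41.7% of the first list and 83.3% of the second. The plot of replicate 1 against replicate 2 shows the lack of repetition, since in Sox4 cKO the genes spread along the axis of replicate 1 only.

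**Figure D3:**
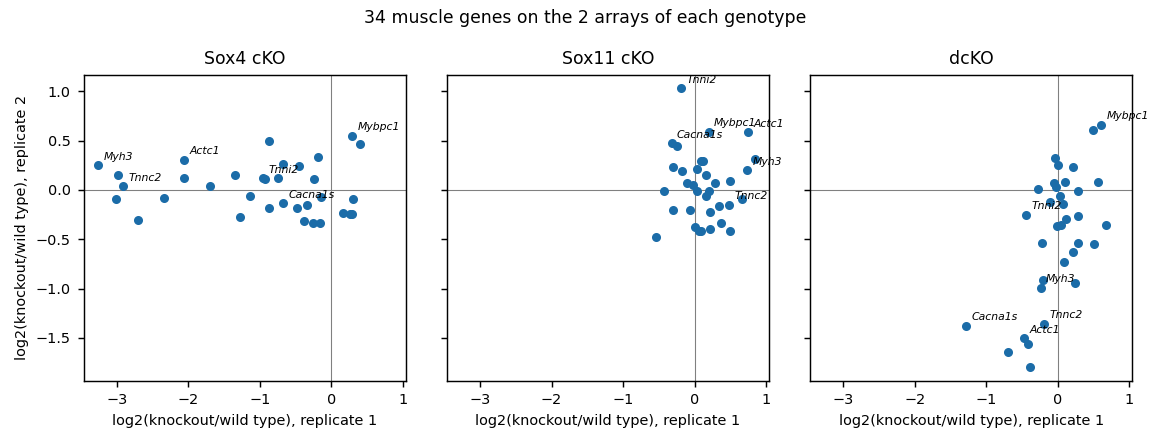
Log2(knockout/wild type) of the 34 muscle genes on replicate 1 (horizontal axis) and replicate 2 (vertical axis, drawn on a wider scale) of each genotype; each point is a gene and 6 are named. In Sox4 cKO Myh3 lay at -3.26 and 0.25, and in dcKO Cacna1s lay at -1.28 and -1.38, the lowest gene on replicate 1.

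Promoter windows are shown for Myh3, Acta1 and Actc1, which were among the genes that moved together on Sox4 cKO replicate 1, and for Cacna1s, the gene that passed the test in dcKO. The windows are those of RefSeq on GRCm38.p6, 300 bases around the annotated transcription start, printed 5′ to 3′ on the strand of the gene. Capitals mark the E-box CANNTG, the motif bound by MyoD and its relatives, which reads the same way on both strands.
Myh3 (chr11:67078050-67078349, plus strand): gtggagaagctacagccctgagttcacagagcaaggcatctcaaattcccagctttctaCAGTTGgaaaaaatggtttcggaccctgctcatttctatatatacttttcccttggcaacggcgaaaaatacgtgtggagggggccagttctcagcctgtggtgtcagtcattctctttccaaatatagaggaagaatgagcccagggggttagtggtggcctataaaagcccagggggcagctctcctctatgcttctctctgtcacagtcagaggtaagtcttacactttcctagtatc
Acta1 (chr8:123894726-123895025, minus strand): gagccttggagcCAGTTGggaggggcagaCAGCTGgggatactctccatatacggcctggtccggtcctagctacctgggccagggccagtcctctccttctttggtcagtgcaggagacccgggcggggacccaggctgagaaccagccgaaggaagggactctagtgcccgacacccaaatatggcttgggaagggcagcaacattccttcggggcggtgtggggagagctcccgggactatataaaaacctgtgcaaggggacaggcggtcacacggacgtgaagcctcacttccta
Actc1 (chr2:114052826-114053125, minus strand): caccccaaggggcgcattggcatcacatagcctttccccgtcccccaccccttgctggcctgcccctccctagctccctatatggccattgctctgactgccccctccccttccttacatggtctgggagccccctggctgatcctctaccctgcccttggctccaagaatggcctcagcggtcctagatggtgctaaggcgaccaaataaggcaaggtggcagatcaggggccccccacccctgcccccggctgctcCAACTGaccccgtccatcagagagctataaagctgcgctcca
Cacna1s (chr1:136052561-136052860, plus strand): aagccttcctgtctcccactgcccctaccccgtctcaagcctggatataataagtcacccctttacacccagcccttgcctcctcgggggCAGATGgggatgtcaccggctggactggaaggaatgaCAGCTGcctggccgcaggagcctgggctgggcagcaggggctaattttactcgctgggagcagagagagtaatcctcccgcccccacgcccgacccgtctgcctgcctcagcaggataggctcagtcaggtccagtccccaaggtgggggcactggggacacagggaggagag

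Of the 34 genes, 26 had such a window (27 windows, since Tnni1 had 2 that overlap). An E-box was found in 24 of the 27 windows (88.9%), against 72.3% of all 32851 windows of this length. The E-box with a GC core, CAGCTG, which is also counted among the CANNTG matches, was found in 13 (48.1%), against 16.3% of all windows. The MCAT motif CATTCC, searched on both strands, was found in 7 (25.9%, against 14.7%), and TATAAA, also on both strands, in 7 (25.9%, against 13.6%). Among the printed windows, CAGCTG occurred in those of Acta1 and Cacna1s, and TATAAA in those of Myh3, Acta1 and Actc1. The window of Myl4, a gene that moved with these on the arrays, held no match to CANNTG. These matches describe the letters of the windows and not sites bound in these samples.

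The fetal isoforms are given first. Values on the 6 arrays are given in the order Sox4 cKO replicates 1 and 2, Sox11 cKO replicates 1 and 2, and dcKO replicates 1 and 2. Myh3, the embryonic myosin heavy chain, had wild-type channel levels of 8.94, 5.03, 5.32, 4.95, 5.44 and 6.36, and was above background in the wild type on Sox4 cKO replicate 1 and both dcKO arrays. Its log2 ratios were -3.26, 0.25, 0.74, 0.20, -0.24 and -0.99. The wild-type sample of Sox4 cKO replicate 1 thus stood above the other 5 wild-type samples and 9.59-fold above the knockout on its own array. A further probe of Myh3 followed closely, with ratios of -3.15, 0.47, 0.68, 0.05, -0.11 and -0.75. Over both arrays of Sox4 cKO the log2 fold change of Myh3 was -1.51 ± 2.48 (SD, n = 2; limma adjusted p = 0.80).

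Myh8, the perinatal myosin heavy chain, had ratios of -2.07, 0.12, 0.01, -0.37, 0.25 and -0.94. Its wild-type level was 7.29 on Sox4 cKO replicate 1, 5.90 on dcKO replicate 2 and between 4.93 and 5.20 elsewhere, where it was not well above background. The dimmer probe of Myh8 was above background in no channel and measured no change. In dcKO, Myh3 and Myh8 were not above background in the knockouts. In the mean over both arrays the wild type was 1.53-fold higher for Myh3 (above background on 2 of 2 arrays; limma adjusted p = 0.80). The folds of Myh3 on replicates 1 and 2 were 1.18 and 1.99. For Myh8 the mean was at least 1.25-fold higher (above background on 1 of 2 arrays; limma adjusted p = 0.86), with folds of 0.843 and 1.92. Such bounds set the mean of the brighter group against the lowest signal that counted as well above background, or the dim probe's own level where that was higher. Where the dim probe's own level was used on both arrays, as for Myh3 here, the value is the plain mean fold and not a bound. The bounds hold for the mean and not for each array.

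Myl4, the alkali light chain of atrial and fetal muscle, had wild-type levels of 8.51, 6.01, 5.81, 5.22, 6.24 and 7.39. Its ratios were -2.70, -0.31, 0.84, 0.32, -0.69 and -1.64, so it was below 0 on both arrays of Sox4 cKO and of dcKO and above 0 on both arrays of Sox11 cKO. The log2 fold change of Myl4 was -1.51 ± 1.69 for Sox4 cKO, 0.58 ± 0.37 for Sox11 cKO and -1.17 ± 0.67 for dcKO (SD, n = 2 each), with limma adjusted p of 0.79, 0.84 and 0.45. The knockout levels of Myl4 stayed between 5.54 and 6.65.

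Actc1, cardiac alpha actin, had wild-type levels of 9.12, 5.24, 5.71, 4.95, 6.11 and 7.64, so the first stood 10.7-fold above the median of the other 5. Its ratios were -2.06, 0.31, 0.75, 0.58, -0.48 and -1.50, and the knockout sample of Sox4 cKO replicate 1, at 7.07, was itself the highest of the 6 knockouts. The 4 fetal isoforms together had a median ratio of -2.39 on Sox4 cKO replicate 1 and -1.25 on dcKO replicate 2, and medians of 0.19, 0.75, 0.26 and -0.36 on the other arrays in the same order.

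The 5 genes listed as adult fast isoforms were not detected in the wild type. Other genes of fast fibres were, among them Tnnc2, Tnni2 and Atp2a1, which were above background in all 6 wild-type samples. Myh1, a myosin heavy chain of adult fast fibres, was above background in no channel, with wild-type levels between 4.29 and 4.92 and ratios between -0.23 and 0.28. Of 5 adult fast genes (Myh1, Myh2, Myh4, Mybpc2 and Actn3), 0 were above background in any wild-type sample, and 1, Mybpc2, in a knockout sample (dcKO replicate 1). Their median ratio lay between -0.01 and 0.16 on all 6 arrays. A ratio near 0 between channels that are not above background does not measure a change. Of 8 slow fibre genes, of which 4 are also among the 34, 7 were above background in the wild-type sample of Sox4 cKO replicate 1, and their median ratio there was -0.80.

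Among the other thick filament genes, Myl1, the alkali light chain of fast fibres, had ratios of -3.01, -0.10, 0.03, 0.21, -0.42 and -1.56. Its wild-type level was 8.46 on Sox4 cKO replicate 1, 6.84 on dcKO replicate 2 and between 5.15 and 6.12 on the others. A dimmer probe of Myl1, matched to another transcript, was above background in no channel.

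Mylpf and Mybpc1 behaved otherwise. Mylpf, the regulatory light chain of fast fibres, was above background in every sample, with wild-type levels between 5.69 and 6.55 and ratios of 0.41, 0.47, -0.11, 0.07, 0.21 and 0.23. Its brightest probe was designed on a predicted transcript, and the dimmer probe, on the curated transcript, was above background in no wild-type sample. Mybpc1, the slow form of myosin binding protein C, had wild-type levels between 7.31 and 8.63 and was higher in the knockout on 6 of 6 arrays, with ratios of 0.29, 0.55, 0.20, 0.59, 0.61 and 0.66. Its log2 fold change in dcKO was 0.64 ± 0.04 (SD, n = 2; limma adjusted p = 0.09), and the dimmer probe pointed the same way on every array (0.04 to 0.72). With an offset of 50 in place of 16 added during background correction, the limma adjusted p of Mybpc1 in dcKO was 0.0049. It was 0.013 without background subtraction and 0.049 with only probes well above background on at least 2 arrays. Other settings gave higher values, 0.27 with the log ratio of the scanner software and 0.24 without the replicate block. With only the arrays of dcKO the adjusted p was 0.18, and with the median over probes 0.11. The remaining thick filament gene, Mybpc2, had no wild-type sample above background, and its level in dcKO was at least 1.24-fold that of the wild type (above background in 1 of 2 knockouts; adjusted p = 0.20).

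**Figure D4:**
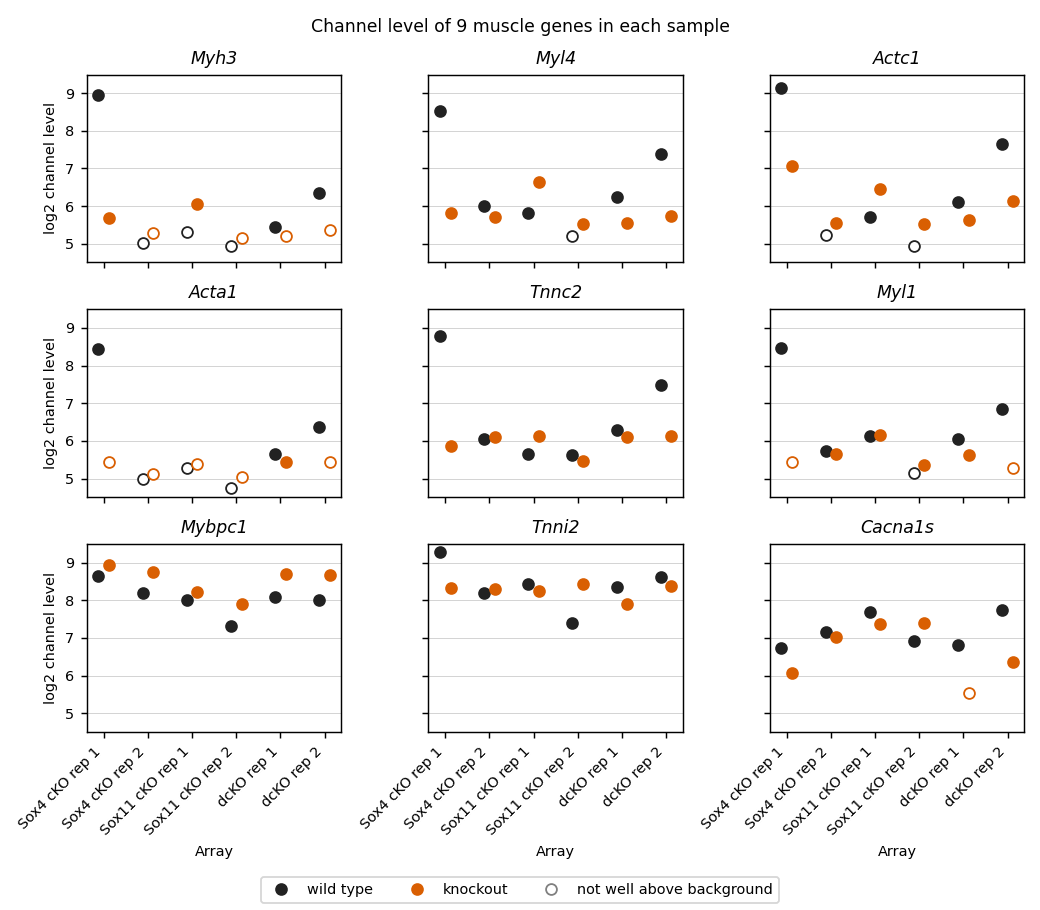
Log2 channel level of 9 muscle genes in the wild-type (black) and knockout (orange) sample of each array, with open circles where the probe was not well above background. For the upper 6 genes the wild-type sample of Sox4 cKO replicate 1 lay above all other samples. This held for Tnni2 too (9.27, with 8.63 next), though the levels of Mybpc1, Tnni2 and Cacna1s lay closer together.

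In the thin filament, Acta1, skeletal alpha actin, had wild-type levels of 8.44, 4.98, 5.28, 4.74, 5.65 and 6.36 and was above background in the wild type on the same 3 arrays as Myh3. Its ratios were -2.99, 0.15, 0.10, 0.30, -0.21 and -0.91. In the mean over both arrays the wild type of Sox4 cKO was 2.68-fold higher than the knockout (limma adjusted p = 0.79). The fold was 7.94 on replicate 1 and 0.904 on replicate 2, so the arrays went opposite ways. Acta1 was above background in neither knockout sample and in 1 of 2 wild-type samples. Acta1 and Actc1, which encode nearly identical proteins, thus had their highest levels in the same wild-type samples, those of Sox4 cKO replicate 1 and dcKO replicate 2.

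The troponins of fast and slow fibres shared this pattern in part. Tnnc2, the calcium sensor of fast fibres, was above background in all 12 samples, with wild-type levels of 8.78, 6.06, 5.66, 5.63, 6.29 and 7.49. Its ratios were -2.92, 0.04, 0.48, -0.15, -0.20 and -1.36, and its knockout levels ran from 5.48 to 6.14. Tnnt1, the slow tropomyosin-binding subunit, gave -2.34, -0.08, 0.49, 0.09, -0.39 and -1.79 (its dimmer probe was above background in no channel). Tnnt3, the fast tropomyosin-binding subunit, was above background in the wild type on Sox4 cKO replicate 1 and dcKO replicate 2 and in no knockout. In the mean over both arrays the wild type of Sox4 cKO was at least 1.76-fold higher (above background on 1 of 2 arrays; limma adjusted p = 0.79). Its folds were 3.23 on replicate 1 and 0.971 on replicate 2. The dimmer Tnnt3 probe, above background in 1 wild-type sample, gave a ratio of -0.70 on Sox4 cKO replicate 1, against -1.69 for the brightest.

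The inhibitory subunits differed from each other. Tnni1, of slow fibres, was above background only in the wild-type sample of Sox4 cKO replicate 1, at 5.76, with ratios of -0.75, 0.12, 0.67, -0.09, 0.07 and -0.14. Tnni2, of fast fibres, was above background in all 12 samples, with wild-type levels of 9.27, 8.19, 8.42, 7.40, 8.35 and 8.63. Its ratios were -0.96, 0.12, -0.18, 1.03, -0.45 and -0.25, so the highest ratio of the gene fell on Sox11 cKO replicate 2, where its wild-type level was lowest. Tpm2, beta tropomyosin, which is also made outside striated muscle, had wild-type levels between 7.09 and 7.99 and ratios between -0.46 and 0.68. Tnnc1, the calcium sensor of slow and cardiac muscle, had ratios between -0.87 and 0.09.

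The scaffold genes were dim. Of 8, 5 were above background in the wild-type sample of Sox4 cKO replicate 1 and 0 in that of Sox4 cKO replicate 2 or Sox11 cKO replicate 2. Myom2, an M-band protein, had wild-type levels of 7.08, 4.98, 5.75, 4.79, 6.03 and 5.65 and ratios of -0.87, 0.49, 0.15, 0.15, -0.04 and 0.32. Actn2, the Z-disc actinin, had a wild-type level of 6.10 on Sox4 cKO replicate 1 against 4.81 to 5.16 elsewhere, with a ratio of -1.35 there and between -0.20 and 0.16 on the other arrays. Neb, the giant protein of the thin filament, had -0.93 on that array and between -0.05 and 0.29 on the others, and Tcap, the titin cap of the Z-disc, ranged from -0.38 to 0.22. For Ttn, titin, the brightest of 4 probes gave -1.28 on Sox4 cKO replicate 1, where it was above background in the wild type only. The next brightest Ttn probe, above background in 1 wild-type sample, gave -0.69 on that array. The remaining Ttn probes, above background in no channel, gave -0.32 and -0.25. Des, desmin, the intermediate filament of muscle, was above background in no sample, with ratios between -0.33 and 0.05.

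Calcium handling genes were detected more evenly. Ryr1, the calcium release channel, had wild-type levels between 5.50 and 5.97 and ratios between -0.43 and 0.29, and Atp2a1, the calcium pump of fast fibres, had levels between 5.61 and 6.27 and ratios between -0.27 and 0.19. In the wild-type sample of Sox4 cKO replicate 1 Ryr1 was at its lowest wild-type level, and Atp2a1, at 6.10, was not at its highest.

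Cacna1s, the voltage sensor of the muscle T-tubule, had wild-type levels of 6.74, 7.15, 7.68, 6.91, 6.81 and 7.74, with its lowest wild-type value on Sox4 cKO replicate 1. Its knockout levels were 6.07, 7.02, 7.36, 7.39, 5.53 and 6.36. Both dcKO samples, and also the knockout sample of Sox4 cKO replicate 1, lay below all wild-type samples. The ratios were -0.68, -0.14, -0.32, 0.47, -1.28 and -1.38. In dcKO Cacna1s fell by 1.33 on the log2 scale (SD 0.07, n = 2; limma adjusted p = 0.0095), with the probe not above background in 1 of the 2 knockouts. The dimmer Cacna1s probe gave -0.21 and -0.24 on the same arrays (adjusted p = 0.70), and with the median over probes in place of the brightest the adjusted p was 0.088. Without dcKO replicate 2 the value was -0.95 and the adjusted p 0.17. With the log ratio that the scanner software (Feature Extraction) computes it was -2.13, and the adjusted p was 0.23. The decrease differed from the change in Sox11 cKO with an adjusted p of 0.10 and from that in Sox4 cKO with an adjusted p of 0.50.

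Of the energy enzymes, Ckm, muscle creatine kinase, was above background only in the wild-type sample of Sox4 cKO replicate 1 (5.91 against 4.43 to 5.11), with ratios of -1.14, -0.06, 0.03, -0.01, 0.50 and -0.54. Pygm, muscle glycogen phosphorylase, was above background in all 12 samples with ratios between -0.47 and 0.28. The acetylcholine receptor subunits Chrna1 and Chrnd, which form the receptor of the nerve-muscle synapse, were not above background in any sample. The lineage factors Myog and Myod1, which switch on muscle genes in myoblasts, were also at background everywhere, with wild-type levels of 4.45 to 5.19 and 4.57 to 4.96. Contractile genes were thus measured in samples in which Myog and Myod1 were not detectable. Of further factors found in muscle precursors, Myf5, Myf6 and Pax7 were also above background in no sample. Pax3, however, was above background in every wild-type and knockout sample, with wild-type levels of 6.14 to 6.55. Which cells its signal came from was not tested.

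Tested over all genes, no muscle gene was called in Sox4 cKO. At an adjusted p under 0.05 limma gave 0 of 34, against 0.00936% of all genes, and with an absolute log2 change over 1.5 as well the count and the percentage were the same. At an unadjusted p under 0.05 there were 17 of 34 (15 lower, 2 higher), against 6.42% of all genes. The median fold change of the 34 was -0.34 (log2), against 0.00 over all genes. Below 0 on both arrays were 13 of 34, against 23% of all genes, and above 0 on both were 2, against 23.5%. Without Sox4 cKO replicate 2 limma called 7 (Myh3, Myh8, Myl1, Myl4, Acta1, Tnnt1 and Tnnc2) at an adjusted p under 0.05, against 0.108% of all genes in that fit, where the lone array is assumed to vary like the others, and the median was -0.69. For these 7 the SD between both arrays ran from 1.55 to 2.48 (log2). Without replicate 1 it called 0, against 0% of all genes, and the median was 0.15.

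In Sox11 cKO limma called 0 of 34 at either threshold, against 0% of all genes, and 2 of 34, Mybpc1 and Tnni2, had an unadjusted p under 0.05 (7.48% of all genes). The median was 0.06, with 4 of 34 below 0 on both arrays against 22.2% of all genes, and 10 above 0 on both against 23.1%. In dcKO 1 of 34, Cacna1s, had an adjusted p under 0.05, against 1.58% of all genes (0.604% for genes that were lower), and 0 passed the log2 change of 1.5 as well, against 0.416%. The unadjusted count was 6 (3 lower, 3 higher), against 12.9% of all genes. The median was -0.12, with 12 of 34 below 0 on both arrays against 27.8% of all genes, and 6 above 0 on both against 25.7%. It was -0.43 without dcKO replicate 1 and 0.15 without replicate 2, so the sign of the median rested on replicate 2. Without either array of Sox4 cKO, 4 genes had an adjusted p under 0.05 in dcKO, namely Cacna1s, Myl4, Actc1 and Tnnt1, against 1.82% of all genes in those fits.

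Between genotypes, limma found 0 of 34 muscle genes to differ at an adjusted p under 0.05. For dcKO against Sox4 cKO the background was 0.271% of all genes (0.243% with the log2 change over 1.5 as well), and 4 of 34 had an unadjusted p under 0.05 (6.57% of all genes). For dcKO against Sox11 cKO it was 0.304% (0.248%), with 5 of 34 (8.17%), and for Sox4 cKO against Sox11 cKO 0.00468%, with 9 of 34 (5.47%). Without Sox4 cKO replicate 2, 3 genes differed between dcKO and Sox4 cKO (Myh3, Acta1 and Tnnc2, against 0.229% of all genes) and 3 between Sox4 cKO and Sox11 cKO (Myh3, Myl4 and Tnnc2, against 0.0328%). Between dcKO and Sox11 cKO, 1 gene differed when an array was left out, Myl4 without either Sox4 cKO array (0.356% of all genes) and Cacna1s without dcKO replicate 1 (0.314%).

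How much could be measured at all differed between comparisons. In Sox4 cKO 16 of the 34 genes were above background in at least 1 sample of each side, 9 in the wild type only and 9 on neither side. In Sox11 cKO the counts were 14 on each side, 19 on neither and 1 in the knockout only, and in dcKO they were 15, 13 on neither, 5 in the wild type only and 1 in the knockout only.

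Markers of the other cells that peeled skin could carry were read beside the muscle genes. For 10 dermal fibroblast genes, all detected in at least 1 wild-type sample and 7 in all of them, the median ratio was -1.80, 0.61, 0.80, -0.45, -1.20 and -1.12. On Sox4 cKO replicate 1, 6 of the 10 were below -1, and Col1a1, a chain of type I collagen, was at -3.57. Dcn, decorin, and Postn, periostin, both detected in all wild-type samples, went the other way, with 0.22 and 0.18 on that array and 0.30 and 0.45 on dcKO replicate 2. The summed level of the dermal genes ran from 12.76 to 14.47 (log2) over wild-type samples, highest on Sox4 cKO replicate 1, and from 12.87 to 13.62 over knockouts. The sum over the 34 muscle genes ran from 10.75 to 12.45 over wild-type samples, highest on the same array, and from 10.96 to 11.21 over knockouts. The median of the dermal genes, though not each gene, was thus low with that of the muscle genes on Sox4 cKO replicate 1 and dcKO replicate 2. On dcKO replicate 1 their median was -1.20 while that of the muscle genes was 0.02. Their part in the result was not tested.

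**Figure D5:**
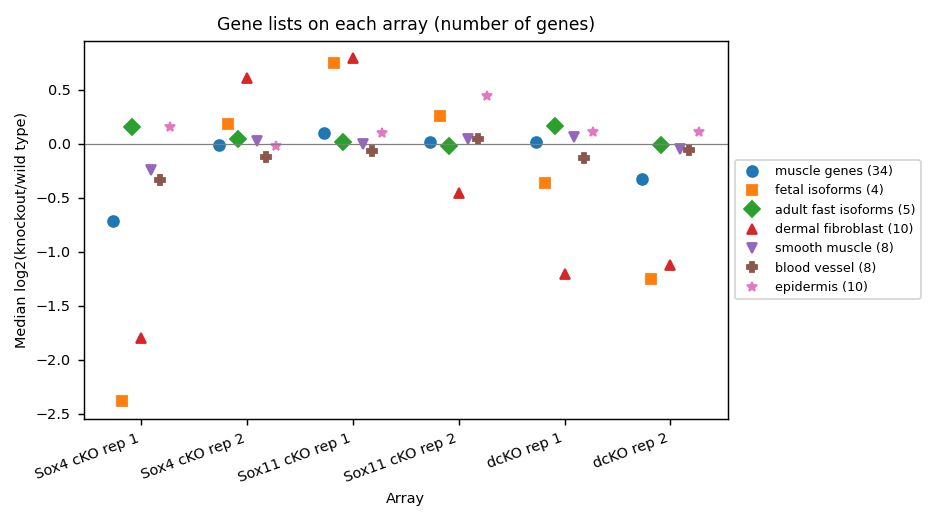
Median log2(knockout/wild type) of gene lists (number of genes in brackets) on each array. On Sox4 cKO replicate 1 the fetal muscle isoforms (-2.39) and dermal fibroblast genes (-1.80) lay far below the epidermal genes (0.16) and the adult fast isoforms (0.16, none above background in a wild-type sample), and on dcKO replicate 1 the dermal genes were low (-1.20) with the muscle genes at 0.02.

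Smooth muscle genes, blood vessel genes and heart genes were mostly at background, with 3 of 8, 4 of 8 and 2 of 7 above it in any wild-type sample, so their medians say little of change. On Sox4 cKO replicate 1 their medians were -0.24 (8 genes), -0.33 (8 genes) and 0.01 (7 genes), and on the other 5 arrays all 3 medians lay between -0.13 and 0.22. Of the detected smooth muscle genes, Acta2, smooth muscle alpha actin, had low ratios on the same arrays as the muscle genes, with -1.04 on Sox4 cKO replicate 1, -0.92 on dcKO replicate 2 and between -0.19 and 0.03 on the others, while Tagln had -0.45 and 0.09 and Smtn 0.18 and 0.15 on those arrays. Of the detected vessel genes, Cldn5, a tight junction protein of endothelium, had -1.46 on Sox4 cKO replicate 1, and Kdr, a receptor of vascular growth factor, had 0.21. Des is counted both among the smooth muscle genes and among the 34. The epidermal genes had medians between -0.02 and 0.45, with the highest on Sox11 cKO replicate 2.

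A wider list of 59 further skeletal muscle genes was examined for the same pattern. Of these, 22 were above background in at least 1 wild-type sample, all 22 of them in that of Sox4 cKO replicate 1, against 13 to 18 in the other 5. On Sox4 cKO replicate 1 the median was -0.23 and 7 genes were below -1, on dcKO replicate 2 2 genes were, and on the other arrays 0. The lowest, chosen after its values were seen, was Sln, sarcolipin, an inhibitor of the calcium pump, with ratios of -2.55, -0.04, 0.14, 0.15, -0.51 and -1.22. The brightest of the list, Tpm3, Synpo2l and Cryab, which are made in other tissues too, had ratios on Sox4 cKO replicate 1 of -0.02, 0.28 and 0.02. For Sox4 cKO, Sox11 cKO and dcKO alike limma gave 0 of the 59 an adjusted p under 0.05, against 0.00936%, 0% and 1.58% of all genes, and 6, 5 and 4 of them an unadjusted p under 0.05, against 6.42%, 7.48% and 12.9% of all genes.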

How the data were processed

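Sox4 cKO, Sox11 cKO and dcKO epidermis was hybridised with wild-type littermate epidermis on 6 Agilent arrays of 2 colours, all on 1 slide and in 1 scan, so neither could be fitted as a batch. Groups, replicate numbers and dyes came from the labels. The deposited scanner files (Agilent Feature Extraction 11.0.1.1 in the submitters' processing notes) hold the median intensity of each spot and its local background, not normalized, and a log10 ratio made by that software. The authors' series table holds log2 values that matched the ratio of knockout over wild type computed here (r of 0.99995 or more, slope 1). Per the study's methods, the authors corrected background with normexp (offset 16), normalized by loess in limma (3.5 in the submitters' notes) and removed a colour effect.

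Here the intensities were processed the same way in R 4.3.3 with limma 3.58.1. Spots with outlier marks (183 to 233 per array) were left out, and no spot was saturated. One model over all 6 arrays had a coefficient per genotype and a dye coefficient in place of the colour adjustment (6.63 prior and 2 residual degrees of freedom). P-values were two-sided and adjusted by Benjamini-Hochberg over 55681 probes, and genes were counted at an adjusted p under 0.05, with and without an absolute log2 change over 1.5. Errors are SD over 2 arrays. Channel levels came from loess followed by quantile normalization of the average intensity. The number of arrays limits precision. The scripts were tested on simulated data.

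Replicate number went with dye orientation, so the dye coefficient was also the replicate block. Same-numbered arrays deviated together (r of 0.258, 0.306 and 0.328 between genotypes over all probes). A dye effect shared by the arrays gives such a correlation too, so it cannot show that same-numbered arrays were paired. Pairing entered the fit only through the dye coefficient. Over the 34 muscle genes alone r was -0.05 between the single knockouts, -0.53 for dcKO with Sox4 cKO and 0.45 for dcKO with Sox11 cKO. These genes thus did not share that deviation throughout.

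Accessions of the probes were named through RefSeq, which gave 28341 of 55681 probes a symbol. All 34 genes are accounted for. Values on each array were given for at most 4 genes per role, by mean intensity among those detected in a wild-type sample, and for 11 genes set by name; others are given by ranges or were named after their values were seen (Tnnt1, Tnnt3, Tnnc1, Ttn, Mybpc2). The genes and lists were chosen with earlier results of these data known. Alternatives were another offset, no background subtraction, the Feature Extraction ratio, the series table, no block, fewer arrays, a filter on dim probes and the median over probes.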

Additional observations from a re-analysis of the deposited data

Results flagged for a closer look

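In 3 of the 25 muscle genes tested, the highest of the 6 wild-type samples stood apart from the rest by Dixon's criterion, which chance meets in about 1 of 20 groups. Of the 25, 5 (Tnni1, Tnnc1, Ttn, Actn2 and Ckm) were included only through the wild-type sample of Sox4 cKO replicate 1. All were read in the same 6 samples, so the count of 3 cannot be set against that rate. The share over all genes is not given here. Myh3 had a wild-type level of 8.94 on the array of Sox4 cKO replicate 1, with 6.36 next. Actn2 had 6.10 on the same array, with 5.16 next, but was above background in that wild-type sample alone and entered the comparison through it, so its value does not show that the sample stood apart. Mylpf had 6.55 on the array of Sox4 cKO replicate 2, with 5.89 next.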

How the results depend on the processing

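Of 1029 values of named genes under the alternatives, 1012 stayed on their side of the threshold, 14 passed it newly, 3 lost it (each Cacna1s in dcKO) and 0 reversed; 72 values that never passed changed sign. The threshold in these counts is the limma adjusted p under 0.05 alone. Not all sign changes were near 0, since 15 were among genes with an absolute main value over 0.5. Without the replicate block, counts were 0, 0 and 1 at an adjusted p alone in Sox4 cKO, Sox11 cKO and dcKO, as with it, and Cacna1s in dcKO had an adjusted p of 0.027. With each array left out in turn, genes called ranged from 0 to 7 in Sox4 cKO and from 0 to 3 for dcKO against Sox4 cKO and for Sox4 cKO against Sox11 cKO, at either threshold. They ranged from 0 to 1 in dcKO (0 to 4 at an adjusted p alone) and from 0 to 1 for dcKO against Sox11 cKO at either threshold. In dcKO the count at an adjusted p alone was 2 with an offset of 50, without background subtraction, with only the arrays of the genotype and with the filter on dim probes, and 0 with the Feature Extraction ratio and with the median over probes. For dcKO against Sox11 cKO it was 1 with an offset of 50, without background subtraction and with only the arrays compared, where the count past both thresholds was also 1. The median over the 34 genes ranged, with arrays left out, from -0.69 to 0.15 in Sox4 cKO, from -0.13 to 0.22 in Sox11 cKO and from -0.43 to 0.15 in dcKO. In Sox11 cKO it was 0.15 with the Feature Extraction ratio and 0.16 with the filter. The centred wild-type level on Sox4 cKO replicate 1 was 1.83 when processed signals were scaled to the 75th percentile. On Sox11 cKO replicates 1 and 2 it was -0.50 and -0.47 with that scaling, -0.11 and -0.14 with an offset of 50, and -0.16 and -0.18 with the median over probes. The cause was not tested. Most muscle genes lay near background, which compresses their ratios.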

Other observations

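Outside all lists, the 10 named genes whose ratios over the 6 arrays were most like the median of the 34 muscle genes were Tceal7, Mettl23, Ptar1, Pyroxd1, Slc12a5, Zfp473, Il1rap, Mid2, Pgap1 and Pde5a, out of 12321 genes above background in the wild type on at least 2 arrays. The likeness is a Pearson correlation over 6 points that include Sox4 cKO replicate 1, given as a description. For Tceal7 r was 0.993, and 0.981 over the other 5 arrays, with ratios of -1.62, 0.08, 0.32, 0.06, -0.08 and -0.82. For the other 9 r lay between 0.958 and 0.987, and between 0.803 and 0.973 without Sox4 cKO replicate 1, and their ratios on Sox4 cKO replicate 1 lay between -0.44 and -0.08.

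Of 5 fat cell genes, 2 were above background in a wild-type sample, Pparg and Fabp4. Pparg, the nuclear receptor of fat cell differentiation, chosen after its values were seen, fell in dcKO, with ratios of -0.89 and -0.68 (limma adjusted p = 0.036), where 0.604% of all genes were called lower. On the 4 arrays of Sox4 cKO and Sox11 cKO its ratios lay between 0.00 and 0.21. Fabp4, a fatty acid binding protein, had -2.29 on Sox4 cKO replicate 1 and -0.51 and 0.31 in dcKO (adjusted p = 0.95), and the median of the 5 on dcKO replicate 2 was 0.31.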
